A study of Mus musculus with 2 samples.

Results

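The small heat shock protein genes Hspb1, Hspb2, Hspb3, Hspb6, Hspb7, Hspb8 and Hspb9 were examined in mouse retina at postnatal day 14, on 1 array labelled Mef2d KO and 1 array of wild-type (WT) retina. These 7 genes are the HSPB family without the alpha crystallins, and they were found by the RefSeq accession of each probe among 20659 named genes. Each gene had 1 probe. Hspb6 led to the choice of this family because its difference between the arrays was already known to be large, so its value is a description. The animals of both arrays are given only as mice, with genotype Mef2d KO or wild-type, tissue and age. The knockout allele, the strain, the sex and the number of animals behind each RNA are not given in the sources used here.

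Small heat shock proteins are chaperones that share a conserved alpha-crystallin domain and hold unfolding proteins in large assemblies without using ATP. Other chaperones, such as the HSP70 family, can then refold the bound proteins or pass them on for degradation. Several family members are most abundant in muscle, and some are switched on by heat shock factor 1 under stress. The alpha crystallins, the best known members in the eye, are structural proteins of the lens and are also made in the retina.

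Levels are log2 of the processed spot signal relative to the 75th percentile of all probe spots on the same array, and differences are the array labelled Mef2d KO minus WT. Errors written as ± come from the scanner software's error model and hold no variation between animals. Each group has 1 array, so differences could not be checked on replicates and carry no p-value. Levels of different probes are not amounts that can be set against each other. The share of spots well above background was 69.6% for the array labelled Mef2d KO and 75.5% for the WT array, and both arrays lay on the same slide and scan. Spiked-in control RNA differed by 0.022 at a mean level of 2.32, by -0.11 at -2.89, by -0.74 at -4.55 and by -1.81 at -6.19, so dim spike-ins read lower on the array labelled Mef2d KO.

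The targeted gene, Mef2d, was not lower on the array labelled with its knockout. Its brighter probe had a signal of 1083 there and 758 in WT (difference 0.43 ± 0.20), and its other probe had 295 there and 252 in WT (0.14 ± 0.21). Whether these probes read the deleted part is not given, so they check nothing, and each direction below is that of the array as labelled. Xist, the RNA of the inactive X chromosome in females, was higher on the array labelled Mef2d KO, at least 51.7-fold by its brighter probe, while the Y-linked gene Eif2s3y differed by -0.36. Both of these sex-linked genes were picked with their values known. The sex composition of the animals and the genotype cannot be told apart on these arrays.

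Hspb6 encodes a small heat shock protein that is abundant in smooth, heart and skeletal muscle and is phosphorylated by cyclic nucleotide-dependent kinases. Its probe (NM_001012401, chromosome 7) had a signal of 1056 on the array labelled Mef2d KO and 12783 on the WT array. The unprocessed median signal was 1025.5 over a local background of 35 on the array labelled Mef2d KO, and 11753 over 40 in WT, and the spot was well above background on both arrays. Its level was 0.30 ± 0.14 on the array labelled Mef2d KO and 3.98 ± 0.14 in WT, a difference of -3.68 ± 0.20, or 12.9-fold lower. In the order of the 16185 genes that both arrays read well above background, Hspb6 had the 9th lowest difference. Its value lay between 11.4-fold and 13.1-fold lower under the 8 alternative settings. Fewer cells that express the gene and less RNA per cell cannot be told apart in whole tissue.

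**Figure D1:**
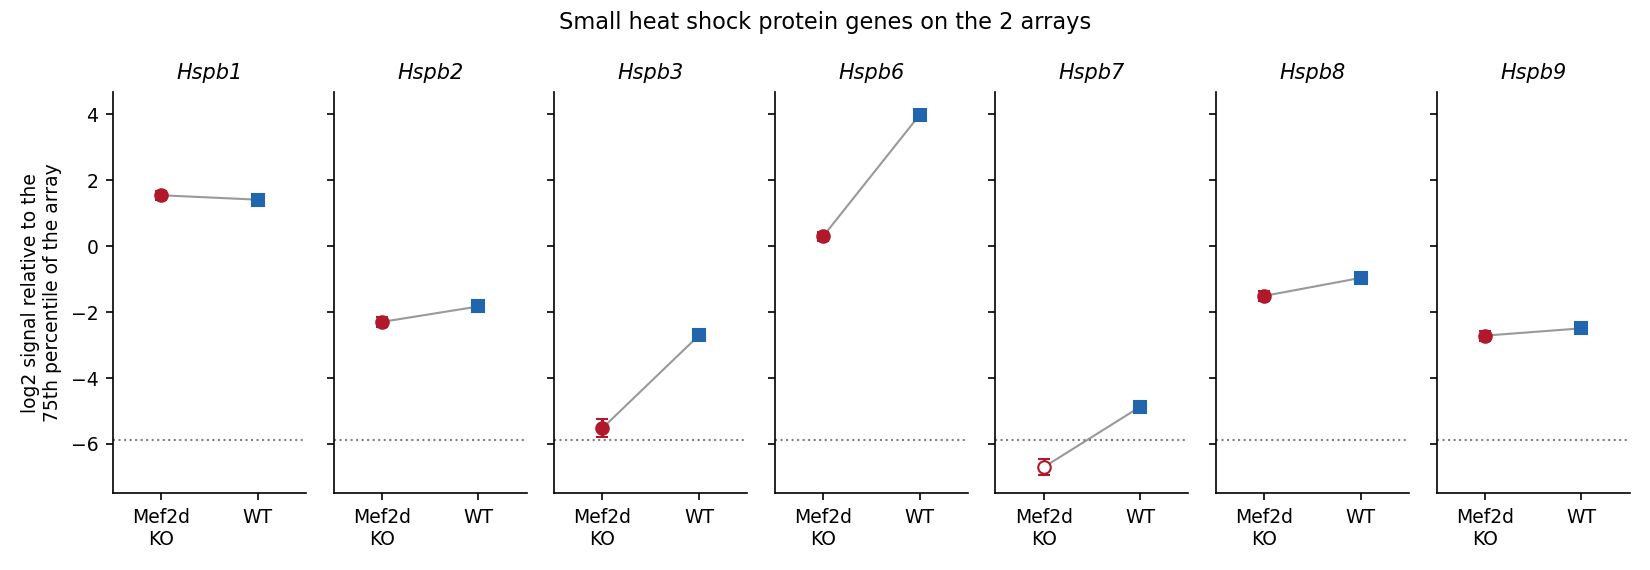
Level of each small heat shock protein gene (log2 signal relative to the 75th percentile of the array) on the array labelled Mef2d KO (circles) and the WT array (squares), with the scanner software's error as bars. The dotted line is the lowest level well above background on the array labelled Mef2d KO, and the open circle marks Hspb7, which was not well above background there. The steepest line is that of Hspb6 (difference -3.68), and the line of Hspb1 is nearly flat (0.13).

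The promoters of the genes that stood furthest apart are shown because a transcription factor gene is named in the label, beside that of Hspb1, whose level was nearly the same on both arrays. Each is the 250 bases before an annotated start, from RefSeq on build GRCm38.p6 and read on the strand of the gene. Capitals mark an inverted pair of heat shock factor binding repeats (GAANNTTC), a MEF2 site or TATAAA, the 3 motifs that were found, and TAATCC, the core motif of the photoreceptor factor CRX, was searched as well. The second annotated start of Hspb6 (chr7:30553051-30553300, plus strand), the start of Hspb3 (chr13:113663677-113663926, minus strand) and the start of Hspb1 (chr5:135887669-135887918, plus strand) have these sequences.
Hspb6: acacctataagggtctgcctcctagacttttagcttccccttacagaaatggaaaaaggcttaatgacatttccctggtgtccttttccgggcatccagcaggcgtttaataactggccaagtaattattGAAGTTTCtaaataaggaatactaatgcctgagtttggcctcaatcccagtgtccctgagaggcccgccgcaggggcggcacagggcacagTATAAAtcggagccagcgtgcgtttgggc
Hspb3: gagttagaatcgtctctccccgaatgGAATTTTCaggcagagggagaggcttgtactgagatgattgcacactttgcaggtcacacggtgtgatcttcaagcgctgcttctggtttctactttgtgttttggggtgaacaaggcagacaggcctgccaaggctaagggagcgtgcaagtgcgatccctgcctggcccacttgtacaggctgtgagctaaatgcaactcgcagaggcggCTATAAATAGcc
Hspb1: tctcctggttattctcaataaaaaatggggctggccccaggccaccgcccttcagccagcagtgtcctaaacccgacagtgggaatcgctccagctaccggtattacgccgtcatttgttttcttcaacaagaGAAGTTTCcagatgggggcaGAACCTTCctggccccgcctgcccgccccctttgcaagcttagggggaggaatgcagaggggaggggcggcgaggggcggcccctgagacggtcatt

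The motifs were chosen after the sequences were available and were searched on both strands. The Hspb6 window held GAANNTTC at 120 to 113 bases before the start and TATAAA at 29 to 24 bases. The Hspb3 window held GAANNTTC at 224 to 217 bases and a MEF2 site at 12 to 3 bases, and TATAAA lay inside that MEF2 site. Hspb1, the classic heat-inducible member, held GAANNTTC at 117 to 110 and at 97 to 90 bases. The window of the other annotated Hspb6 start held none of these motifs, nor did those of Hspb7, Hspb8 and Hspb9. Hspb2 had no promoter window in the set used, so 6 members were searched, and none of their windows held TAATCC. Of all 32851 promoter windows of the same length, 6.69% held GAANNTTC, 2.92% a MEF2 site, 12.4% TATAAA and 6.25% TAATCC. A match of letters is no measure of binding, and which Hspb6 start the array probe reads was not tested.

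Hspb3 encodes a muscle member that forms a complex with Hspb2, and it had the next lowest difference. Its probe (NM_019960, chromosome 13) had a signal of 18.7 on the array labelled Mef2d KO and 124 in WT. The unprocessed median signal was 64 over a background of 32 on the array labelled Mef2d KO, and 184 over 39 in WT. The difference was -2.82 ± 0.32, or 7.05-fold lower, the 18th lowest of the 16185 genes. The spot was dim: its level on the array labelled Mef2d KO was -5.52 ± 0.28, and -2.70 ± 0.15 in WT. The size of this difference depended on the processing. It was -2.48 with quantile normalization alone, and -1.14, or 2.21-fold lower, with normexp background correction followed by quantile normalization, the setting called normexp background from here on. Spike-ins on either side of its mean level of -4.11 differed by -0.74 and -0.11. On the array labelled Mef2d KO the Hspb3 level was close to the lowest level well above background there, -5.87. Spike-ins on either side of it on that array, at -4.90 and -7.00, differed by -0.74 and -1.81.

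Among the 6 small heat shock protein genes well above background on both arrays, 2 (Hspb6 and Hspb3) were thus lower by 2-fold or more, and 0 were higher by as much. The share of all 16185 genes lower by 2-fold or more was 1.74%, and the share higher by as much was 0.618%. Because Hspb6 was chosen from this same contrast, nothing is read from the family's count. Above a mean level of -3, where Hspb6 lies, 0.892% of 13118 genes were lower by that much, and at or below it, where Hspb3 lies, 5.35% of 3067 genes were. The plot of difference against level shows Hspb6 in the range where spike-ins differed little.

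**Figure D2:**
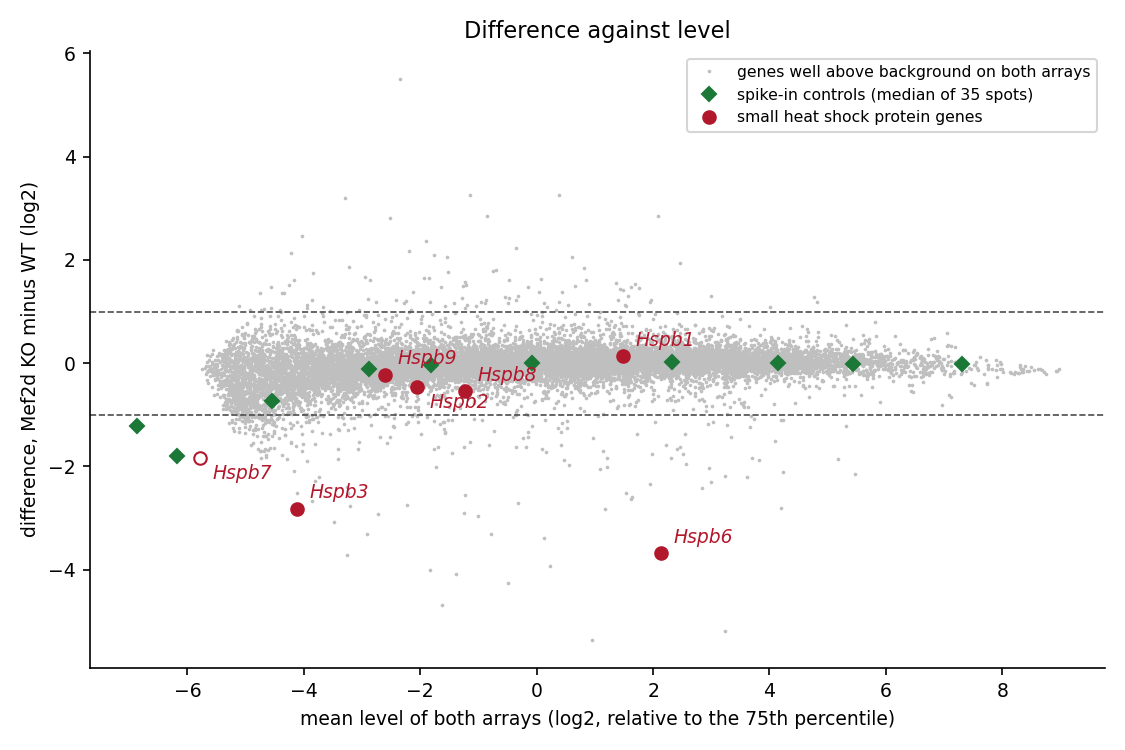
Difference between the array labelled Mef2d KO and WT (log2, vertical) against the mean level of both arrays (log2, horizontal) for the 16185 genes well above background on both arrays (grey), the spike-in controls (diamonds) and the small heat shock protein genes (circles, open for Hspb7). Dashed lines mark 2-fold, Hspb6 and Hspb3 lie below the lower one, and Hspb7 (-1.84) lies close to the spike-in that differed by -1.81.

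Hspb7, a heart and muscle member that binds the actin crosslinker filamin C, was read on the WT array only. Its probe (NM_013868, chromosome 4) was printed as 10 spots per array. Their signals ran between 3.32 and 14.6 with a median of 9.60 on the array labelled Mef2d KO, where 0 of 10 spots were well above background. In WT they ran between 18.3 and 33.7 with a median of 28.5, and 10 of 10 spots were well above background. The spots of the arrays did not overlap, but spots of 1 array share 1 RNA and are not replicates of a genotype. By its bound, the WT level against the lowest level well above background on the other array, Hspb7 was at least 1.998-fold lower, just short of 2-fold. Of the 920 genes well above background on WT only, 19.1% had a bound of at least 2-fold. The measured difference of -1.84 ± 0.25 was close to that of the spike-in at a mean level of -6.19, which was well above background on 0% of its spots on the array labelled Mef2d KO and 74.3% in WT. With normexp background the measured difference of Hspb7 was -0.25.

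**Figure D3:**
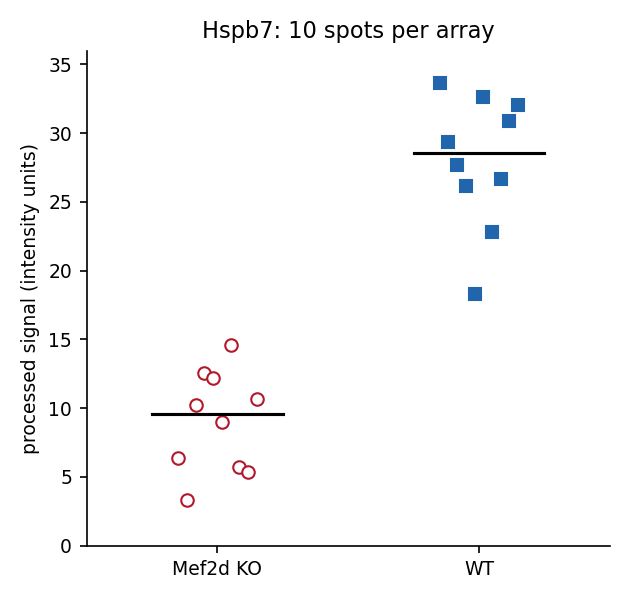
Processed signal (intensity units) of the 10 spots of the Hspb7 probe on the array labelled Mef2d KO (open circles, none well above background) and on the WT array (squares), with the median of each array as a line. The highest spot labelled Mef2d KO (14.6) lies below the lowest WT spot (18.3).

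Hspb2 encodes the muscle partner of Hspb3 and binds the kinase Dmpk. It had a signal of 175 on the array labelled Mef2d KO and 228 in WT (NM_024441, chromosome 9), a difference of -0.47 ± 0.21. Of all genes, 7.49% had a difference as low or lower. The annotated Cryab gene overlaps Hspb2, and its probes differed by -1.83 ± 0.20 and -1.61 ± 0.20. Cryab, the alpha-B crystallin, had signals of 5896 and 1268 on the array labelled Mef2d KO and 19786 and 3645 in WT. The difference of Hspb2 was thus smaller in size than those of both Cryab probes, by more than the spot error of each.

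Hspb8, which acts with the co-chaperone Bag3 to send misfolded proteins to autophagy, had a signal of 302 on the array labelled Mef2d KO and 416 in WT (NM_030704, chromosome 5). Its difference of -0.55 ± 0.20 was within 2-fold, and 6.06% of all genes lay as low or lower. Bag3 itself had a difference of 0.059. Hspb1, which is induced by heat shock and protects actin filaments, had a signal of 2509 on the array labelled Mef2d KO and 2152 in WT (NM_013560, chromosome 5). Its difference of 0.13 ± 0.20 was smaller than the spot error, and it was positive under each of the 8 alternatives. Hspb9, a testis member, had a signal of 131 on the array labelled Mef2d KO and 144 in WT (NM_029307, chromosome 11), a difference of -0.22 ± 0.21 that was close to the spot error.

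The order of the differences therefore had Hspb6 lowest, then Hspb3, Hspb8, Hspb2, Hspb9 and Hspb1, with Hspb7 known only by a bound. Hspb6 and Hspb3 stood apart from the other 4 genes by more than the spot error. Hspb8 and Hspb2 did not differ from each other beyond it.

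The relatives of the family gave a mixed picture. Cryaa, the alpha-A crystallin of the lens, had a signal of 18041 on the array labelled Mef2d KO and 75243 in WT by its brighter probe, a difference of -2.15 ± 0.20. Its other probe differed by -2.62. Cryaa and Cryab were thus at least 2-fold lower, as Hspb6 was, though their folds of 4.43 and 3.57 were smaller than its 12.9. Hspb11, a distant relative that works in cilia, differed by -0.025, and Odf1, a sperm tail protein, was well above background in WT only.

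The rest of the heat shock system was nearly level between the arrays. In 6 lists of heat shock factors, HSP70 and HSP110, HSP90, chaperonin, HSP40 and BAG family genes, 69 of 71 genes had a probe and 67 were well above background on both arrays. Among the 67, 0 were lower by 2-fold or more and 0 higher by as much, beside 1.74% and 0.618% of all genes. A count of 0 is near those shares, so nothing is read from it for these 67 genes. Their median difference was 0.030, beside -0.0060 over all genes. They had 26 negative differences, and 8 with median scaling, which puts the median of all genes at 0.17. With no filter on dim probes 1 gene passed 2-fold, Hsf2bp, which was well above background in WT only.

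Heat shock factor 1, the activator of the stress response, differed by 0.084 (Hsf1), and its relative Hsf2 by -0.24. Hsf4, a factor of lens development, was dim and differed by -0.41. The stress-induced chaperone genes Hspa1a (-0.031), Hsph1 (0.046) and Dnajb1 (0.14) were within the spot error of 0. The abundant Hspa8 differed by -0.090 and Hsp90aa1 by -0.26. Hspa5 (0.28) and Hspa9 (0.22), chaperones of the endoplasmic reticulum and the mitochondria, had small positive differences, of up to 0.46 with median scaling. Trap1 (0.19), a mitochondrial HSP90, was within the spot error of 0. They are named as genes furthest from 0 in their lists, and no rise of either compartment is read from them. The HSP70 and HSP110 list had 7 negative and 7 positive differences, and the HSP90 list 2 and 2. The lowest of the 67 was Dnajc5b at -0.73, a dim probe, and the highest was Hsf5 at 0.59, with Dnajc3 at 0.32. Among the chaperonins the largest differences were those of Cct4 (0.19) and Cct6b (0.16), and in the BAG family list those of Fkbp4 (-0.25) and Bag2 (-0.21). No probe was matched to Hspa1b.

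The 10 kinases listed for their link to small heat shock proteins included 1 gene past 2-fold. Beside this, 1.74% of all genes were lower by as much and 0.618% higher. Prkd1, protein kinase D1, a kinase of Hspb1, had a signal of 490 on the array labelled Mef2d KO and 1157 in WT, a difference of -1.33 ± 0.20. The other 9 kinases were within 2-fold. Among them, Prkg2, a cyclic GMP-dependent kinase, differed by -0.99, Prkaca, the protein kinase A subunit whose activity targets Hspb6, by -0.26, and Mapkapk2, the main kinase of Hspb1, by -0.018. Of 18 binding partners 0 passed 2-fold, and the largest differences were those of the intermediate filament gene Des (-0.91, and -0.17 with normexp background) and Synpo2 (-0.65, and -0.28 with normexp background), a partner of Bag3. Other probes of Synpo2 went the opposite way, at 0.21 for a probe well above background on both arrays and 0.42 for a probe below it on both.

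**Figure D4:**
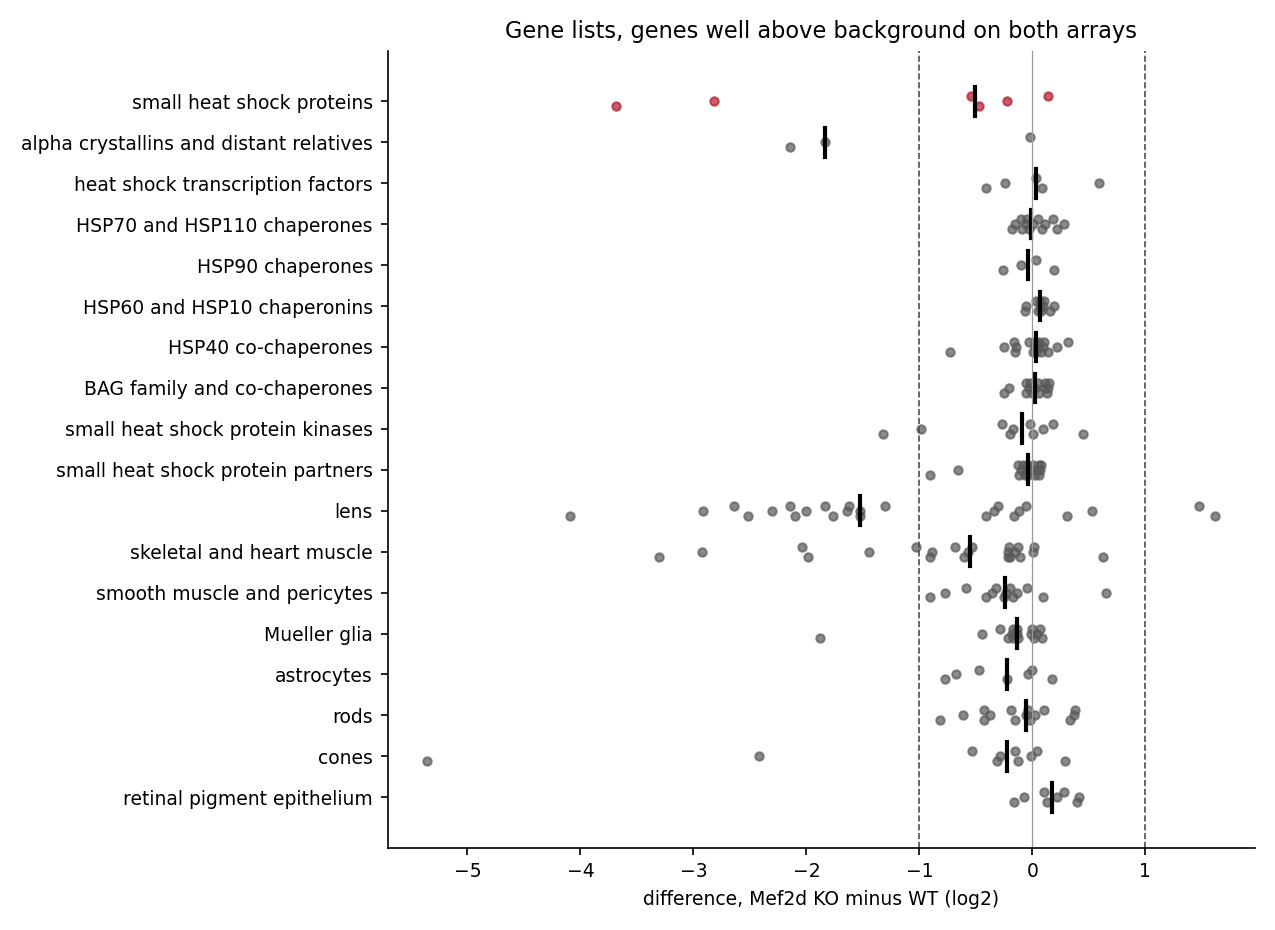
Difference between the array labelled Mef2d KO and WT (log2) of each gene well above background on both arrays, in rows for the small heat shock proteins and the other gene lists, with the list median as a black bar. Dashed lines mark 2-fold. The heat shock lists lie around 0 while lens genes reach -4.09 and cone genes -5.36.

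Markers of other cell types moved in part with Hspb6. Of 27 lens genes, 25 were well above background on both arrays. Among these 25, 15 were lower by 2-fold or more and 2 higher by as much, beside 1.74% and 0.618% of all genes. The lens list's median difference was -1.53, and -0.52 with normexp background. Its summed level was 90.7 times the array's 75th percentile on the array labelled Mef2d KO and 234 times it in WT. The WT sum was thus 2.58-fold higher. Without Cryaa the sum was 69.6 on the array labelled Mef2d KO and 141 in WT, or 2.03-fold higher in WT. Of the 24 genes then well above background on both arrays, 14 were lower by 2-fold or more. The lens water channel gene Mip had the lowest difference (-4.09), followed by Crygn (-2.91), Crybb2 (-2.64), Cryba2 (-2.51) and Cryba1 (-2.30). Lim2, a lens fibre membrane protein, was not well above background on the array labelled Mef2d KO. Lgsn (1.62) and Crygf (1.47) were the higher ones. The other 8 were within 2-fold, so the list was split. They were Crygb (-0.12), Crygc (-0.34), Crygd (-0.31), Cryge (0.53), Bfsp1 (0.30), Birc7 (-0.058), Hsf4 (-0.41) and Lctl (-0.16). The part of lens cells in the Hspb6 value was not tested.

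Of 30 skeletal and heart muscle genes, 22 were well above background on both arrays. Among these 22, 6 were lower by 2-fold or more and 0 higher by as much, beside 1.74% and 0.618% of all genes. The 6 were Cacna1s (-3.31), Srpk3 (-2.93), Tnnt1 (-2.04), Pygm (-1.98), Tnni1 (-1.45) and Ttn (-1.03), and the last is named to complete the count. The list's median difference was -0.55, and its summed level was 4.86 on the array labelled Mef2d KO and 12.9 in WT. The largest terms of the WT sum were Tnnt1, Pygm and Cacna1s, with WT levels of 2.11, 1.54 and 0.86. The sums therefore do not describe the list as a whole. With normexp background the median was -0.16 and 4 genes were lower by 2-fold or more, without Tnni1 (-0.40) and Ttn (-0.15). At or below a mean level of -3, where Tnni1 and Ttn lie, 5.35% of all genes were lower by 2-fold or more. Of the 30 genes, 4 (Ckm, Myh2, Myh4 and Myoz2) were not well above background on either array, while other defining markers were read on both, such as Acta1, with a signal of 138 on the array labelled Mef2d KO and 209 in WT, and Myh7, with 264 on the array labelled Mef2d KO and 246 in WT. Of 16 smooth muscle and pericyte genes, 14 were well above background on both arrays and 0 passed 2-fold. Their median was -0.24 and their summed level was 11.5 on the array labelled Mef2d KO and 13.5 in WT. The lowest were Des (-0.91) and Myh11 (-0.78), and Lmod1 and Actg2 were not well above background on either array.

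Rod markers were bright on both arrays, while the other retina lists held both bright and dim markers. Summed levels were 2253 on the array labelled Mef2d KO and 2532 in WT for 15 rod genes. They were 125 on the array labelled Mef2d KO and 155 in WT for 10 cone genes, and 319 on the array labelled Mef2d KO and 362 in WT for 16 Mueller glia genes. Of the rod genes 0 passed 2-fold, with Sag (-0.82) and Gngt1 (-0.62) furthest from 0. Of the cone genes 2 were lower by 2-fold or more, Arr3, the cone arrestin (-5.36), and Pde6h, a cone phosphodiesterase subunit (-2.42). Of the Mueller glia genes 1 was, Spc25 (-1.88). Of the 7 astrocyte genes 0 passed 2-fold, with Pax2 at -0.77 and Fgfr3 at -0.68. Of 8 pigment epithelium genes well above background on both arrays 0 did, with Tyrp1 at 0.41 and Slc16a8 at 0.39. Beside these counts, 1.74% of all genes were lower by 2-fold or more and 0.618% higher by as much. Nothing is read from the counts of 0 or 1.

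The genes nearest to Hspb6 in the plane of both levels were D16Ertd472e, Crybb2, Slc31a2, Cryba2 and Grtp1, at distances of 0.99, 1.04, 1.05, 1.19 and 1.32 log2 units over these 2 arrays. Crybb2 and Cryba2 are beta crystallin genes, and Slc31a2 encodes a copper transport protein. Their differences were -2.35 for D16Ertd472e, -2.64 for Crybb2, -2.60 for Slc31a2, -2.51 for Cryba2 and -1.84 for Grtp1. Hspb6 was lower than each, but it was chosen for its large difference, so nothing is read from this.

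Genes next to Hspb6 and Hspb3 along the chromosome did not share their differences. Proser3 and Lin37, on either side of Hspb6, differed by 0.028 and 0.0060. Snx18 and Arl15, beside Hspb3, differed by -0.091 and 0.052. Hspb1, Hspb2, Hspb8 and Hspb9 were within 2-fold themselves, so their neighbours had no such difference to follow. Of 14 neighbours of all members, 12 were well above background on both arrays. Past 2-fold were 2 of them, both lower and both beside Hspb2, namely Cryab and 1110032A03Rik (-1.14, and -0.51 with normexp background). Over all genes, 1.74% were lower by as much and 0.618% higher. Srrm4, beside Hspb8, differed by 0.40, within 2-fold. The neighbours of Hspb1, Srrm3 (-0.19) and Ywhag (-0.0062), and those of Hspb9, Kat2a (-0.11) and Rab5c (0.0036), were within the spot error of 0. Ccdc60, the other neighbour of Hspb8, was well above background in WT only, and Srarp, beside Hspb7, on neither array.

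**Figure D5:**
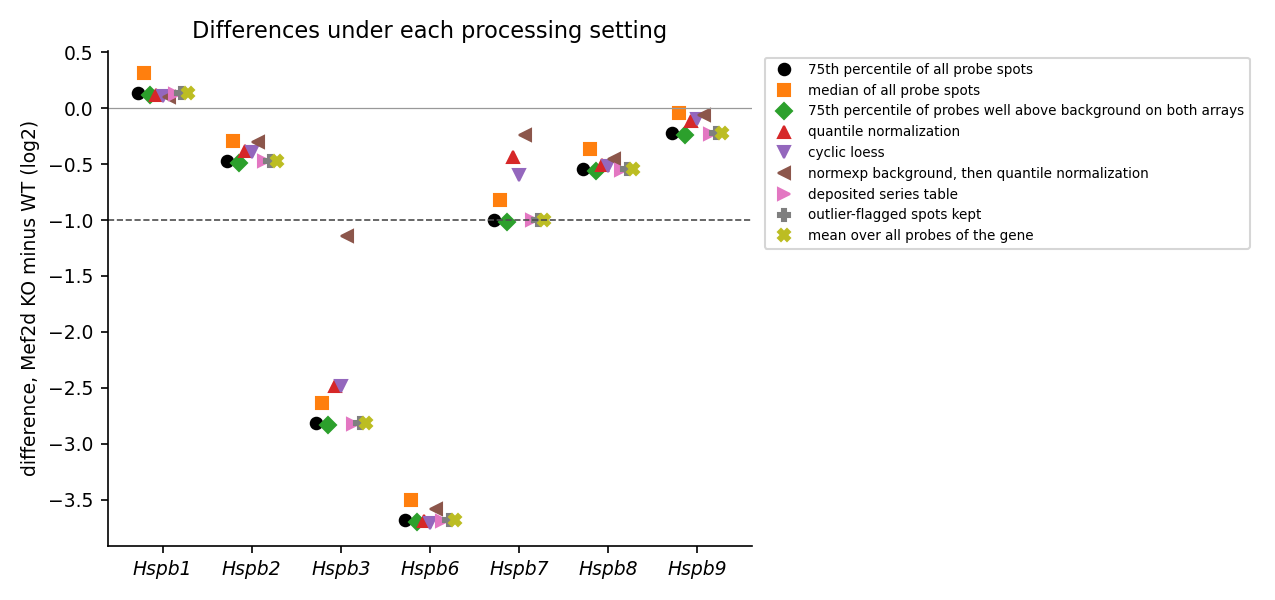
Difference between the array labelled Mef2d KO and WT (log2) of each small heat shock protein gene under the 9 processing settings. For Hspb7 the points are log2 bounds. Hspb6 stays between -3.71 and -3.51 under each setting, while Hspb3 moves up to -1.14 with normexp background.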

How the data were processed

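Total RNA of retina at postnatal day 14 was amplified and Cy3-labelled for 1-colour Agilent arrays, 1 per genotype, per the labels' protocols. The deposited intensity values were background-subtracted and detrended by Agilent Feature Extraction 10.10.1.1, per the file headers. The deposited series table gives these intensities multiplied by 1.76 for the array labelled Mef2d KO and 1.88 for WT, on a linear scale and not centred.

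The main values were log2 processed signal minus the 75th percentile of 59305 probe spots (858 on the array labelled Mef2d KO, 807 in WT). Outlier spots (126 and 106) were left out and spots of 1 probe averaged, which gave 55669 probes. RefSeq accessions of the GRCm38.p6 annotation named 27231 of them (48.92%). The array design names another build, so only chromosomes, gene order and promoter windows were taken from it. For a gene with several probes, that of the highest mean over both arrays was used. A probe was well above background if more than a share of 0.5 of its spots were, by the scanner software's flag. Replicate spots differed with a median SD of 0.061 above a level of -3 and 0.38 at or below it, and the number of arrays limits precision.

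The members and gene lists were chosen with earlier results of these data known. Named genes are the members, Mef2d, their neighbours, the list genes past 2-fold (at most 5 per list) or else the 2 furthest from 0, a fixed set of chaperone genes and the 5 genes nearest to Hspb6. The value of 1 of the neighbours counted is not reported here. The sex-linked genes, Lgsn, Crygf, Lim2, Ttn, Odf1, Hsf2bp, Hspb11, Prkg2, Acta1, Myh7 and the dim muscle markers fall outside that rule. So do Crygb, Crygc, Crygd, Cryge, Bfsp1, Birc7 and Lctl. All of these were chosen after their values were seen. Alternatives were median scaling, another percentile, quantile normalization, cyclic loess, normexp background followed by quantile normalization, the series table, outlier spots kept, the mean over probes and other filters. The fold counts were tested on simulated data. R 4.3.3, limma 3.58.1, Python 3.11.15, numpy 2.4.6, pandas 2.3.3 and matplotlib 3.10.9 were used.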

Additional observations from a re-analysis of the deposited data

How the results depend on the processing

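Hspb6, Hspb3, Hspb2, Hspb8 and Hspb9 kept negative differences and Hspb1 a positive one under the 8 alternatives run for each, and Hspb6 and Hspb3 stayed past 2-fold. The Hspb3 difference of -2.82 became -2.48 under both quantile normalization and cyclic loess, and -1.14 under normexp background followed by quantile normalization. The log2 bound of Hspb7, -0.998, became -0.44 under quantile normalization, -0.60 under cyclic loess and -0.24 under normexp background. Among genes at a mean level above -3 only, 1 small heat shock protein gene, Hspb6, was past 2-fold, against 2. The heat shock machinery lists had 1 gene past 2-fold lower when dim probes were not filtered, against 0.

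Past 2-fold over all genes were 281 lower and 100 higher, so 73.8% of these were lower. Median scaling gave 170 and 151 (53.0% lower), quantile normalization 164 and 156 (51.2%), cyclic loess 162 and 154 (51.3%) and normexp background 95 and 63 (60.1%). Without a filter on dim probes there were 1738 and 225, and above a mean level of -3 there were 117 lower genes. The cause of these changes was not tested. No paired analysis was possible because each group has 1 array.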
